A study of Mus musculus with 13 samples.

Results

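The miRNAs described here are the mature products of mmu-mir-219a-1, mmu-mir-219a-2 and mmu-mir-338, hairpins known for their high expression in oligodendrocytes, the myelinating glia of the brain. They were chosen by hairpin name and made up 3 of the 903 hairpins counted, 5 of the 1384 mature miRNAs and 6 of the 1514 pairs of a hairpin and a mature miRNA. Small RNA was sequenced from the brains of TgR mice, a line with overexpression of the human readthrough splice variant of acetylcholinesterase (AChE-R), and of wild-type FVB/N mice, their parent strain. The groups were 3 FVB/N and 3 TgR libraries of the hippocampus, and 3 FVB/N and 4 TgR libraries of the prefrontal cortex (PFC). The transgene is driven in TgR mice by a minimal cytomegalovirus promoter and enhancer that acts constitutively, and the study describes excess transgene mRNA in subsets of neurons. The labels give neither the ages of the mice nor the behavioural subgroup of each TgR mouse. They do not say whether the same mice gave both regions. Per the protocol, each group had as many mice as libraries, so the p-values measure the spread between these mice with their libraries.

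miR-219 and miR-338 are known to rise as oligodendrocyte precursors leave the cell cycle and mature, and to repress transcripts that keep the precursors dividing, among them that of the PDGF receptor alpha. Mice that lack them form less myelin, the lipid-rich sheath around axons. A hairpin can give a mature miRNA from each of its arms (5p and 3p), and the arms have different seeds and so different targets.

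The mature sequences, from the RefSeq annotation of mouse build GRCm38.p6, are shown because each seed, bases 2 to 8 in capitals, sets which transcripts the miRNA can pair with. RefSeq held 4 of the 5 mature miRNAs, miR-219a-2-3p being the other one.
miR-219a-5p: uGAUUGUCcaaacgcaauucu
miR-219a-1-3p: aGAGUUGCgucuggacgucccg
miR-338-3p: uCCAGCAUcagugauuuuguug
miR-338-5p: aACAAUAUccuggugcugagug
These 4 seeds differed from each other, so none of the 4 could be grouped by seed. Of the 1165 mature miRNAs in the libraries that had a sequence, 0 others shared a seed with them. miR-219a-5p has the same sequence at both mir-219a hairpins, while the 3p arms are specific to their hairpins: miR-219a-1-3p marks mir-219a-1 and miR-219a-2-3p marks mir-219a-2.

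The hairpins lie on different chromosomes of GRCm38.p6, all on the minus strand. mir-219a-1 (chr17:34024983-34025092) overlapped an exon of Gm26940 on the same strand and lay between the genes Ring1, 303 bases away, and H2-Ke6, 941 bases away. Gm26940 is annotated as a long non-coding RNA but runs only from 34024966 to 34025070, much the same stretch as the hairpin. mir-219a-2 (chr2:29845631-29845727) was intergenic, 629 bases from Urm1 on one side and 23437 bases from Cercam on the other. mir-338 (chr11:120014765-120014862) lay in an intron of Aatk, a kinase gene known for its expression in neural tissue, on the same strand. Each hairpin has a hairpin on the opposite strand: mir-219c overlapped mir-219a-1 by 60 bases, mir-219b overlapped mir-219a-2 by 65 and mir-3065 overlapped mir-338 by 87. The products of these opposite hairpins had few counts, and how the strand was handled in counting is not given in the sources used here. Over all 13 libraries, miR-219c-5p had 54 counts (1 to 7 per library), miR-3065-5p 8, miR-219c-3p 4, miR-219b-5p 3 and miR-219b-3p 2, and none of them had enough counts to be tested.

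Counts are the reads assigned to each mature miRNA, taken from the hairpin with the higher total where there were several, and levels are given in CPM, which puts all libraries on 1 total after edgeR's TMM scaling. The library totals ranged from 8247254 to 9481358 in FVB/N hippocampus (median 8365147), from 8695210 to 11111883 in TgR hippocampus (median 10608785), from 7017152 to 9420497 in FVB/N PFC (median 9249617) and from 5350259 to 10858410 in TgR PFC (median 9701469). A floor of 3 counts corresponded to 0.265 to 0.545 CPM on this scale, and this floor covers counting error only, since PCR reads without molecular identifiers are not independent molecules. All 5 mature miRNAs were above it in all 13 libraries and all 5 passed the filter on low counts, which kept 647 mature miRNAs for testing. miR-219a-1-3p was the least counted of the 5, with 16 to 39 counts per library, against at least 140 for each of the other 4.

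miR-219a-2-3p was the most abundant of the 5 in both hippocampal groups. Its levels were 1423, 1703 and 953 CPM in FVB/N hippocampus, 1518, 1343 and 2619 CPM in TgR hippocampus, 568, 423 and 416 CPM in FVB/N PFC and 393, 267, 332 and 500.3 CPM in TgR PFC. All 6 hippocampal libraries lay above all 7 PFC libraries, TgR hippocampus 3 stood highest, and the genotypes overlapped within each region. The group means were 1359.9 ± 379 CPM in FVB/N hippocampus (SD, n = 3), 1827 ± 692 CPM in TgR hippocampus (n = 3), 469 ± 85.5 CPM in FVB/N PFC (n = 3) and 373 ± 99.2 CPM in TgR PFC (n = 4). From high to low the order of the groups was TgR hippocampus, FVB/N hippocampus, FVB/N PFC and TgR PFC, and only the middle step separated groups whose libraries did not overlap.

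miR-219a-5p, the arm shared by both mir-219a hairpins, was at 88.6, 129.8 and 61.4 CPM in FVB/N hippocampus, 142, 151 and 177 CPM in TgR hippocampus, 43.2, 46.6 and 15.7 CPM in FVB/N PFC and 25.9, 43.6, 34.8 and 29.9 CPM in TgR PFC. Every TgR hippocampal library was above every FVB/N one, every hippocampal library was above every PFC library, and the PFC genotypes overlapped, with FVB/N PFC 3 the lowest of all 13. The means were 93.3 ± 34.4 CPM (FVB/N hippocampus, SD, n = 3), 157 ± 17.8 CPM (TgR hippocampus, n = 3), 35.2 ± 17.0 CPM (FVB/N PFC, n = 3) and 33.5 ± 7.62 CPM (TgR PFC, n = 4). TgR hippocampus was thus highest, followed by FVB/N hippocampus, FVB/N PFC and TgR PFC, and among neighbours in this order only the PFC groups overlapped, although the difference between TgR and FVB/N hippocampus did not pass the edgeR test given with the genotype comparison.

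miR-338-3p had levels of 528, 576 and 469 CPM in FVB/N hippocampus, 713, 802 and 889.9 CPM in TgR hippocampus, 361, 325 and 171 CPM in FVB/N PFC and 221, 439.8, 313 and 243 CPM in TgR PFC. The order was that of miR-219a-5p in the hippocampus, with each TgR library above each FVB/N library and all of these above the PFC, where the genotypes overlapped. FVB/N PFC 3 was again the lowest library. From high to low the groups were TgR hippocampus, FVB/N hippocampus, TgR PFC and FVB/N PFC. Only the PFC groups overlapped among these neighbours, but neither the difference between the genotypes in the hippocampus nor that between the regions in FVB/N mice passed the edgeR test. The means were 524 ± 53.5 CPM (FVB/N hippocampus, SD, n = 3), 802 ± 88.3 CPM (TgR hippocampus, n = 3), 286 ± 101 CPM (FVB/N PFC, n = 3) and 304 ± 98.5 CPM (TgR PFC, n = 4).

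miR-338-5p, from the other arm of the same hairpin, was at 897, 899 and 773 CPM in FVB/N hippocampus, 859, 695 and 1179 CPM in TgR hippocampus, 463, 349 and 486 CPM in FVB/N PFC and 403, 261, 344 and 448 CPM in TgR PFC. The regions were again apart, but unlike miR-338-3p this arm overlapped between the genotypes in the hippocampus as well as in the PFC. The means were 856 ± 72.4 CPM (FVB/N hippocampus, SD, n = 3), 911 ± 246 CPM (TgR hippocampus, n = 3), 433 ± 73.2 CPM (FVB/N PFC, n = 3) and 364 ± 80.7 CPM (TgR PFC, n = 4). TgR hippocampus was highest, then FVB/N hippocampus, FVB/N PFC and TgR PFC, and only the step between the regions separated neighbours without overlap.

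miR-219a-1-3p was the rare arm, between 2.32 and 4.72 CPM in all libraries. Its means were 4.01 ± 0.623 CPM (FVB/N hippocampus, SD, n = 3), 3.56 ± 0.221 CPM (TgR hippocampus, n = 3), 3.01 ± 0.724 CPM (TgR PFC, n = 4) and 2.93 ± 0.246 CPM (FVB/N PFC, n = 3). In that order every group overlapped with its neighbour. Among the 1384 mature miRNAs, the median rank by level within a library ran from 65 in TgR hippocampus to 141.5 in TgR PFC for miR-219a-2-3p, and from 465 in FVB/N hippocampus to 494 in FVB/N PFC for miR-219a-1-3p. miR-338-5p ranked between 89 and 138, miR-338-3p between 91 and 155.5, and miR-219a-5p between 185 and 290, by group medians.

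**Figure D1:**
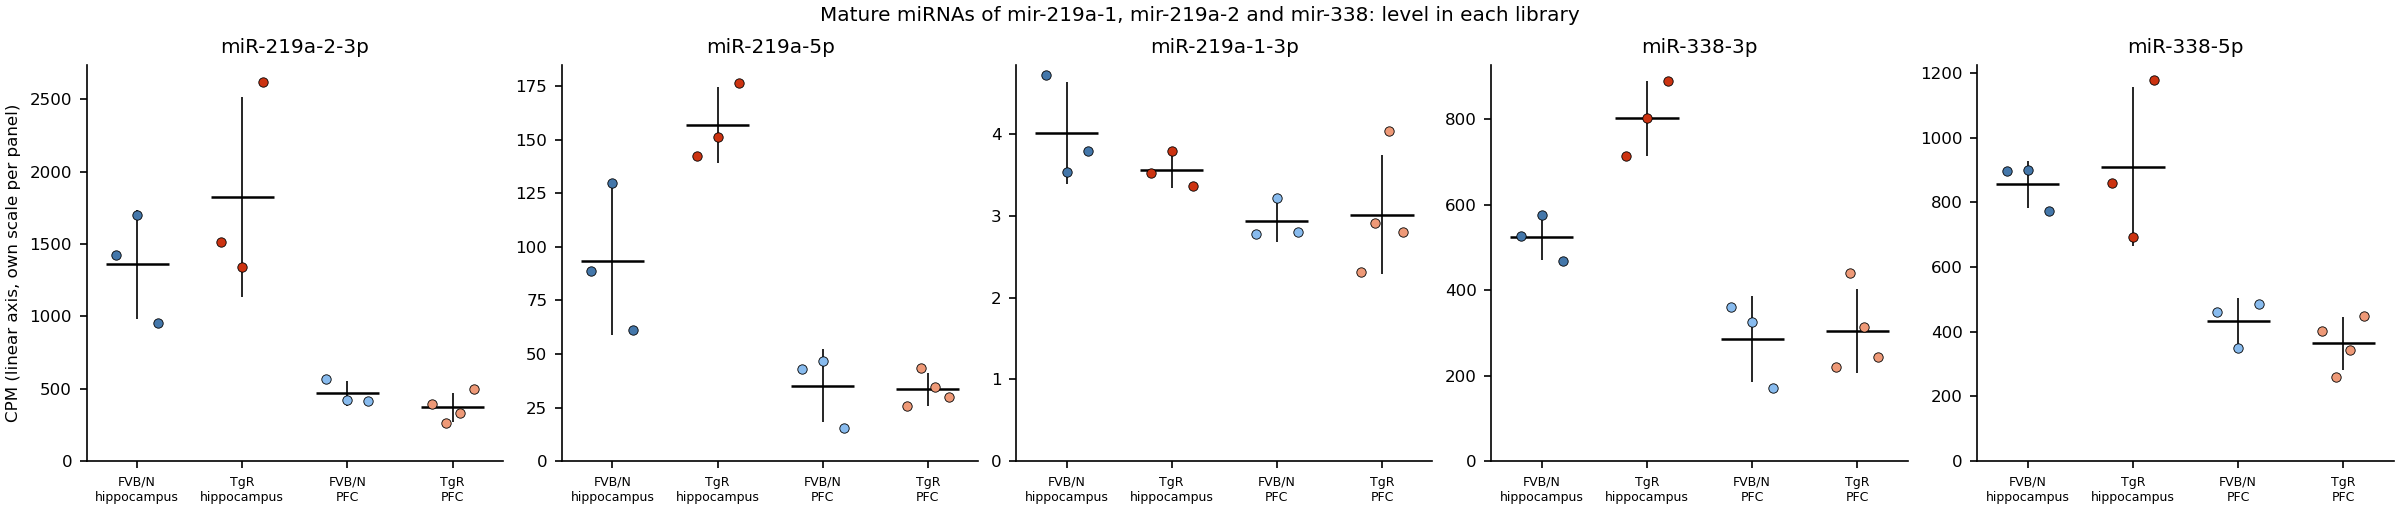
Level of each of the 5 mature miRNAs in CPM (vertical axes, linear, 1 scale per panel) in the 13 libraries by group, with 1 point per library, a horizontal line at the group mean and a vertical line of 1 SD. For miR-219a-2-3p, miR-219a-5p, miR-338-3p and miR-338-5p the hippocampal libraries lie above the PFC libraries, while miR-219a-1-3p stays between 2.32 and 4.72 CPM.

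In FVB/N mice, the comparison of hippocampus with PFC shows how these miRNAs differ between regions without the transgene. miR-219a-2-3p was higher in the hippocampus by 2.90-fold (log2 fold change 1.54, standard error (SE) 0.29, adjusted p = 0.0064, edgeR), miR-219a-5p by 2.66-fold (1.41, SE 0.36, adjusted p = 0.032, edgeR) and miR-338-5p by 1.98-fold (0.98, SE 0.22, adjusted p = 0.017, edgeR). These 3 of the 5 passed the threshold of 0.05, each with all 3 hippocampal libraries above all 3 PFC libraries, while 4.79% of the 647 tested miRNAs were called higher. All 5 had hippocampal libraries entirely above the PFC libraries, which was so for 12.2% of those tested. miR-338-3p was 1.83-fold higher but did not pass (log2 fold change 0.87, SE 0.28, adjusted p = 0.067, edgeR), nor did miR-219a-1-3p (0.45, SE 0.24, adjusted p = 0.31, edgeR). The median log2 fold change of the 5 was 0.98, against 0.02 over all tested miRNAs. In these bulk libraries, fewer oligodendrocytes and less of a miRNA per cell cannot be told apart, and the libraries hold no mRNA by which oligodendrocytes could be counted.

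The call of miR-219a-2-3p held under all 24 alternatives of the processing (adjusted p 2.8e-06 to 0.041, edgeR or DESeq2). miR-219a-5p passed under 17 of 24 (0.00053 to 0.15), miR-338-5p under 21 (0.0012 to 0.083) and miR-338-3p under 4 (0.013 to 0.23). All kept their sign throughout. The alternative with a threshold of 0.1 reused the main fit, so its folds and p-values could not differ. miR-219a-5p no longer passed without FVB/N hippocampus 1 (adjusted p = 0.058), FVB/N hippocampus 2 (0.15), FVB/N PFC 1 (0.052) or TgR hippocampus 1 (0.051), by edgeR. Nor did it pass by edgeR with library size only (adjusted p = 0.055), with FVB/N mice fitted alone (0.094) or without TgR hippocampus 1 and 3 together. Its log2 fold change was 1.07 without FVB/N hippocampus 2 and 1.37 to 1.57 in the other settings where it did not pass. miR-338-5p no longer passed without FVB/N hippocampus 1 (adjusted p = 0.060), FVB/N hippocampus 2 (0.065) or FVB/N PFC 2 (0.083), by edgeR. Its log2 fold changes there were 0.95, 0.93 and 0.82. miR-338-3p passed with no filter (adjusted p = 0.013, edgeR), with the replicate block within genotype (log2 fold change 0.94, SE 0.22, adjusted p = 0.028, edgeR), without TgR PFC 2 (0.047, edgeR) and by DESeq2 (0.042). Over all tested miRNAs, 49 were called in this comparison, and 31 were without FVB/N PFC 1, 24 without FVB/N PFC 2, 27 without FVB/N hippocampus 1 or 2, and 30 without TgR hippocampus 1.

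In TgR mice, the same 4 more abundant miRNAs were all higher in the hippocampus, by 4.89-fold for miR-219a-2-3p (log2 fold change 2.29, SE 0.27, adjusted p = 0.00012, edgeR) and 4.69-fold for miR-219a-5p (2.23, SE 0.33, adjusted p = 0.00071, edgeR). The arms of mir-338 followed at 2.64-fold for miR-338-3p (1.40, SE 0.26, adjusted p = 0.0034, edgeR) and 2.50-fold for miR-338-5p (1.32, SE 0.20, adjusted p = 0.00098, edgeR). So 4 of the 5 were called, against 5.41% of all tested miRNAs called higher. The same 4 had no overlap between 3 hippocampal and 4 PFC libraries, against 15.0% of those tested. miR-219a-1-3p overlapped and was not called (log2 fold change 0.24, SE 0.22, adjusted p = 0.59, edgeR). The median of the 5 was 1.40 on the log2 scale, against 0.05 over all tested miRNAs.

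These TgR calls held without any single library, but TgR hippocampus 1 and 3 were rich in choroid plexus miRNAs, as described with the marker lists. Without both of them, an alternative chosen after seeing the data, TgR hippocampus had 1 library left, which was assumed to vary as the other groups did. miR-219a-2-3p was then still called (log2 fold change 1.81, adjusted p = 0.013, edgeR), whereas miR-219a-5p (2.14, adjusted p = 0.064), miR-338-3p (1.36, adjusted p = 0.21) and miR-338-5p (0.89, adjusted p = 0.21) kept their sign but did not pass. Over the 24 alternatives, the adjusted p ranged from 2.9e-13 to 0.013 for miR-219a-2-3p, 9.8e-10 to 0.064 for miR-219a-5p, 4.0e-07 to 0.21 for miR-338-3p and 1.4e-07 to 0.21 for miR-338-5p. The number of tested miRNAs called was 66 with all libraries, 29 without TgR hippocampus 1, 38 without TgR hippocampus 3, 34 without TgR PFC 3, 40 without TgR PFC 1 and 5 without both choroid-rich libraries.

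**Figure D2:**
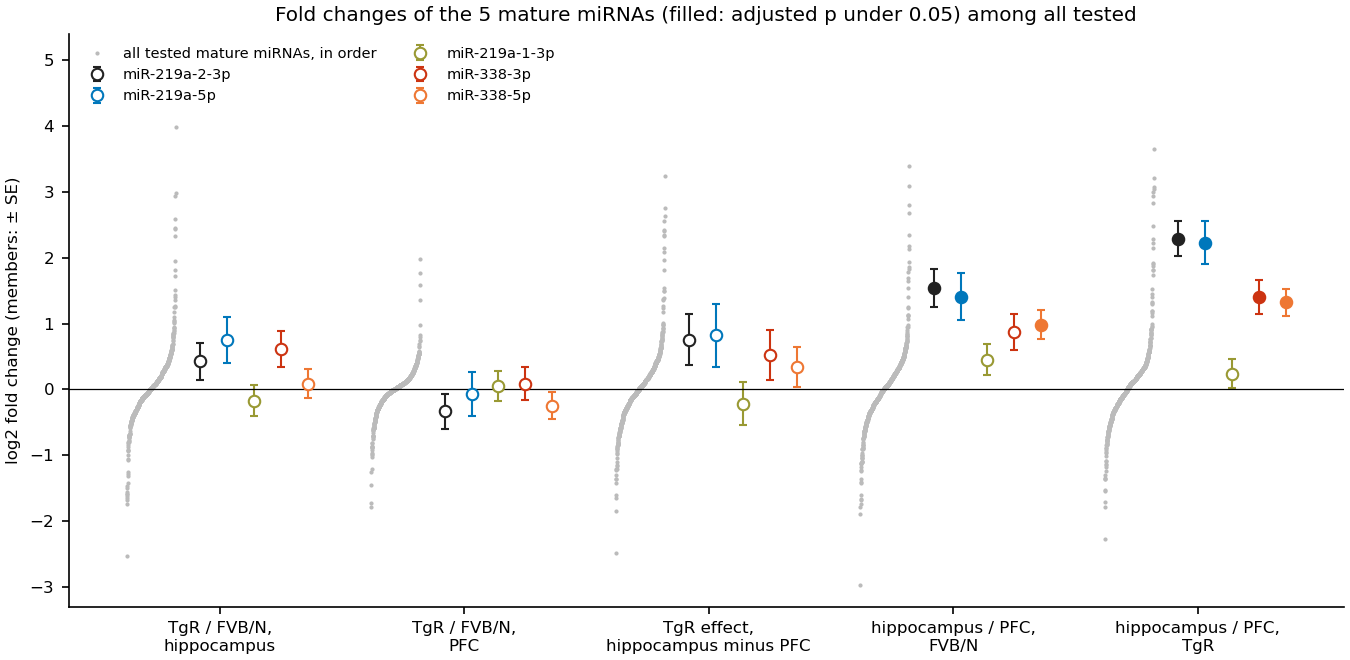
Log2 fold change (vertical axis) of the 5 mature miRNAs in 5 comparisons, with bars of 1 SE and filled points where the adjusted p was under 0.05, beside all 647 tested miRNAs in grey, ordered by value. Filled points occur only in the comparisons of hippocampus with PFC, 3 in FVB/N and 4 in TgR mice.

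The comparison of TgR with FVB/N hippocampus asks whether the transgene goes with a different level of these miRNAs. None of the 5 was called by edgeR (0 of 5, against 4.64% of all tested miRNAs), and DESeq2 called 0. By edgeR, 1 had an unadjusted p under 0.05, against 98 of the 647 tested. miR-219a-5p was 1.68-fold higher in TgR mice (log2 fold change 0.75, SE 0.35, adjusted p = 0.33, edgeR) and miR-338-3p 1.53-fold higher (0.61, SE 0.28, adjusted p = 0.29, edgeR). For these 2 of the 5, all 3 TgR libraries lay above all 3 FVB/N libraries, which held for 11.1% of those tested. The other arms were closer to 0, with log2 fold changes of 0.43 for miR-219a-2-3p (SE 0.28), 0.09 for miR-338-5p (SE 0.22) and -0.17 for miR-219a-1-3p (SE 0.23). With each library left out, these ran from 0.03 to 0.63, from -0.18 to 0.22 and from -0.27 to -0.08, in that order. The median of the 5 was 0.43, against 0.01 over all tested.

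miR-338-3p was called when the hippocampal libraries were fitted alone (log2 fold change 0.60, SE 0.14, adjusted p = 0.046, edgeR), the lowest adjusted p of its 23 alternatives, which reached 0.70. Without TgR hippocampus 1 and 3, miR-338-3p was at 0.59 and miR-219a-5p at 0.68, while miR-219a-2-3p was at -0.04 and miR-338-5p at -0.33. Of all tested miRNAs, 30 were called with all libraries, 15 without FVB/N hippocampus 1, 18 without FVB/N hippocampus 2, 9 without FVB/N hippocampus 3, 11 without TgR hippocampus 1, 17 without TgR hippocampus 2, 15 without TgR hippocampus 3 and 3 without both TgR hippocampus 1 and 3.

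In the PFC, no difference between TgR and FVB/N mice beyond the spread of the libraries was found for these miRNAs. The log2 fold changes were -0.33 for miR-219a-2-3p (SE 0.27), -0.25 for miR-338-5p (SE 0.21), -0.07 for miR-219a-5p (SE 0.33), 0.05 for miR-219a-1-3p (SE 0.23) and 0.09 for miR-338-3p (SE 0.26). edgeR called 0 of the 5, against 0.155% of all tested miRNAs, and DESeq2 called 0. By edgeR, 0 had an unadjusted p under 0.05, against 21 of the 647 tested, and the adjusted p of each was 0.999. The median of the 5 was -0.07, against 0.01 over all tested. The signs are not firm, as they held in 19 of 23 alternatives for miR-219a-5p, 21 for miR-338-3p and 22 for miR-219a-1-3p. Those of miR-219a-2-3p and miR-338-5p held in all 23. With each library left out, however, their values ran from -0.50 to -0.18 and from -0.40 to -0.13. The single miRNA called in this comparison was miR-383-5p, named after its value was seen (log2 fold change -1.72).

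Whether the effect of the transgene differed between the regions was tested directly, and the same test compares the regional difference between the genotypes. The hippocampal minus the PFC effect was 0.82 for miR-219a-5p (SE 0.48, adjusted p = 0.76, edgeR), 0.76 for miR-219a-2-3p (SE 0.39, adjusted p = 0.63, edgeR), 0.52 for miR-338-3p (SE 0.38, adjusted p = 0.81, edgeR), 0.34 for miR-338-5p and -0.22 for miR-219a-1-3p. Without TgR hippocampus 3 it was 0.37 for miR-219a-2-3p and 0.07 for miR-338-5p, and without both TgR hippocampus 1 and 3 it was 0.30 and -0.06. With each library left out, it ran from 0.31 to 0.78 for miR-338-3p and from -0.35 to -0.05 for miR-219a-1-3p. edgeR called 0 of the 5, against 0.464% of all tested miRNAs, and DESeq2 called 0. By edgeR, 0 had an unadjusted p under 0.05, against 55 of the 647 tested. The larger regional folds in TgR than in FVB/N mice, and the call of miR-338-3p in TgR mice alone, were thus not shown to differ between the genotypes. The 3 miRNAs called were miR-34b-3p (2.56), miR-34c-3p (2.63) and miR-34c-5p (2.42), named after their values were seen. That count was 5 without TgR PFC 2 or FVB/N hippocampus 1, 8 without TgR hippocampus 2 and 0 without both TgR hippocampus 1 and 3.

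The counts of miR-219a-5p at its pair of hairpins moved together. As reads of this sequence could come from either hairpin, the counts cannot show what each hairpin gave. At mir-219a-1 the count was 33.2% to 46.4% of that at mir-219a-2 (median 39.0%), although the mature sequence is the same, and how reads of the shared sequence were divided is not given in the sources used here. With each pair of hairpin and mature miRNA tested by itself, the log2 fold changes of miR-219a-5p at mir-219a-1 and mir-219a-2 were 1.41 and 1.40 between the regions in FVB/N mice, 2.16 and 2.18 in TgR mice, and 0.71 and 0.74 between the genotypes in the hippocampus. The hairpin-specific arms differed far more: miR-219a-2-3p had 81.4 to 769.9 counts for each count of miR-219a-1-3p over the 13 libraries.

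Ratios between these miRNAs within a library do not depend on the scaling of that library. The ratio of miR-219a-2-3p to miR-219a-1-3p was 298, 475 and 247 in FVB/N hippocampus, 425, 349 and 769.9 in TgR hippocampus, 201, 129 and 146 in FVB/N PFC and 166, 89.1, 81.4 and 176 in TgR PFC. Every hippocampal library had a higher ratio than every PFC library, and the genotypes overlapped in each region. With the regions compared within genotype, the ratio was 2.91-fold higher in the hippocampus (log2 difference 1.54, two-sided exact permutation p = 0.0014, the smallest that the 700 regroupings can give, adjusted p = 0.0086 over 6 ratio tests). Its adjusted p stayed between 0.0086 and 0.03 over 14 alternatives. Between the genotypes the log2 difference was 0.10 (exact permutation p = 0.76, adjusted p = 0.957), from a TgR minus FVB/N difference of 0.57 in the hippocampus and -0.37 in the PFC, neither tested by itself.

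For the arms of mir-338, the ratio of miR-338-3p to miR-338-5p was 0.588, 0.640 and 0.607 in FVB/N hippocampus, 0.831, 1.16 and 0.755 in TgR hippocampus, 0.781, 0.930 and 0.352 in FVB/N PFC and 0.550, 1.68, 0.909 and 0.541 in TgR PFC. The 5p arm had more counts than the 3p arm in all libraries except TgR hippocampus 2 and TgR PFC 2, the FVB/N hippocampal libraries lay close together, and the PFC libraries were wide apart. TgR exceeded FVB/N by 0.55 on the log2 scale in the hippocampus, where the genotypes did not overlap, and by 0.37 in the PFC, where they did. Over both regions the log2 difference between the genotypes was 0.46 and did not pass the test (exact permutation p = 0.156, adjusted p = 0.36). It was 0.25 without FVB/N PFC 3 and 0.29 without TgR PFC 2. Between the regions it was 0.04 (exact permutation p = 0.909, adjusted p = 0.957).

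The ratio of miR-219a-2-3p to miR-219a-5p counted at mir-219a-2 showed the 3p arm ahead in every library. It was 13.1 to 16.1 in FVB/N hippocampus (median 15.5), 8.87 to 14.8 in TgR hippocampus (median 10.7), 9.07 to 26.5 in FVB/N PFC (median 13.1) and 6.11 to 16.7 in TgR PFC (median 12.3). All 4 groups overlapped in this ratio. The log2 difference was -0.41 for TgR against FVB/N (exact permutation p = 0.18, adjusted p = 0.36) and 0.02 for hippocampus against PFC (exact permutation p = 0.957, adjusted p = 0.957). The first was -0.20 without FVB/N PFC 3 and -0.27 without TgR PFC 2.

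**Figure D3:**
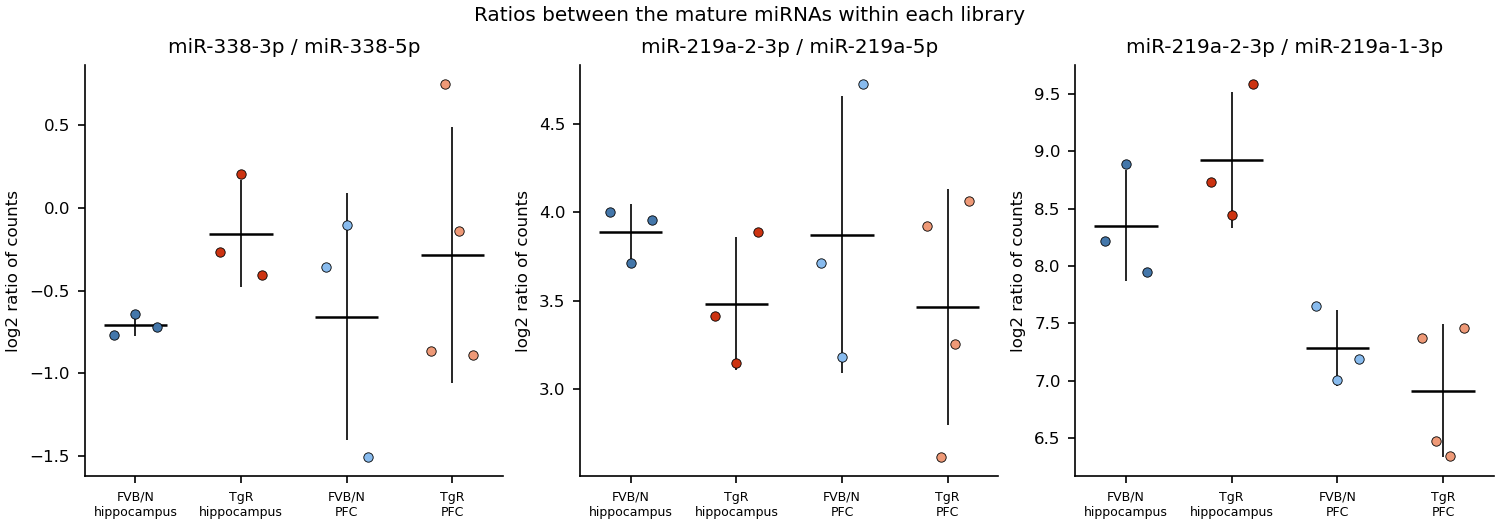
Log2 ratio of counts between 2 of the mature miRNAs within each library (vertical axes) by group, with 1 point per library, a horizontal line at the group mean and a vertical line of 1 SD. The regions are apart for miR-219a-2-3p over miR-219a-1-3p and overlap for the other ratios.

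Over the libraries of 1 region, the levels of the arms were correlated in 6 planned relations, 3 pairs in 6 hippocampal and 7 PFC libraries, and none passed after adjustment over the 6. In the hippocampus, miR-219a-2-3p and miR-219a-5p had r = 0.802 (exact permutation p = 0.0528, adjusted p = 0.192, and rho = 0.60, p = 0.242). On the 4 libraries left without the 2 farthest from the median of miR-219a-2-3p, r was 0.0458. The value of r thus depended on those libraries, but leaving them out also narrows the range of miR-219a-2-3p, which can itself lower r. miR-219a-2-3p and miR-338-3p had r = 0.715 there (exact permutation p = 0.0958, adjusted p = 0.192, and rho = 0.60, p = 0.242) and -0.456 without 2 libraries, with the same limit. miR-338-3p and miR-338-5p had r = 0.336 (exact permutation p = 0.56, adjusted p = 0.672; rho = 0.257, p = 0.658) and -0.848 without 2 libraries.

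In the PFC, the arms of mir-338 ran in opposite directions over the 7 libraries, with r = -0.718 (exact permutation p = 0.0643, adjusted p = 0.192; rho = -0.571, p = 0.20), -0.663 without 2 libraries and -0.957 to -0.498 with each library left out. The other PFC relations were weak, with r = -0.319 for miR-219a-2-3p and miR-338-3p (exact permutation p = 0.491, adjusted p = 0.672; rho = -0.0714, p = 0.906; -0.294 without 2 libraries) and r = -0.0947 for miR-219a-2-3p and miR-219a-5p (exact permutation p = 0.834, adjusted p = 0.834; rho = 0, p = 1; -0.0927 without 2 libraries). With each library left out, these ran from -0.688 to 0.217 and from -0.391 to 0.239, and each was positive only without TgR PFC 2 among these. TgR PFC 2 had the lowest total of the 13 libraries, 5350259. Both genotypes are mixed in each of these relations. With the genotype means subtracted, r in the order given was 0.795, 0.851 and 0.586 in the hippocampus and -0.746, -0.299 and -0.0764 in the PFC.

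**Figure D4:**
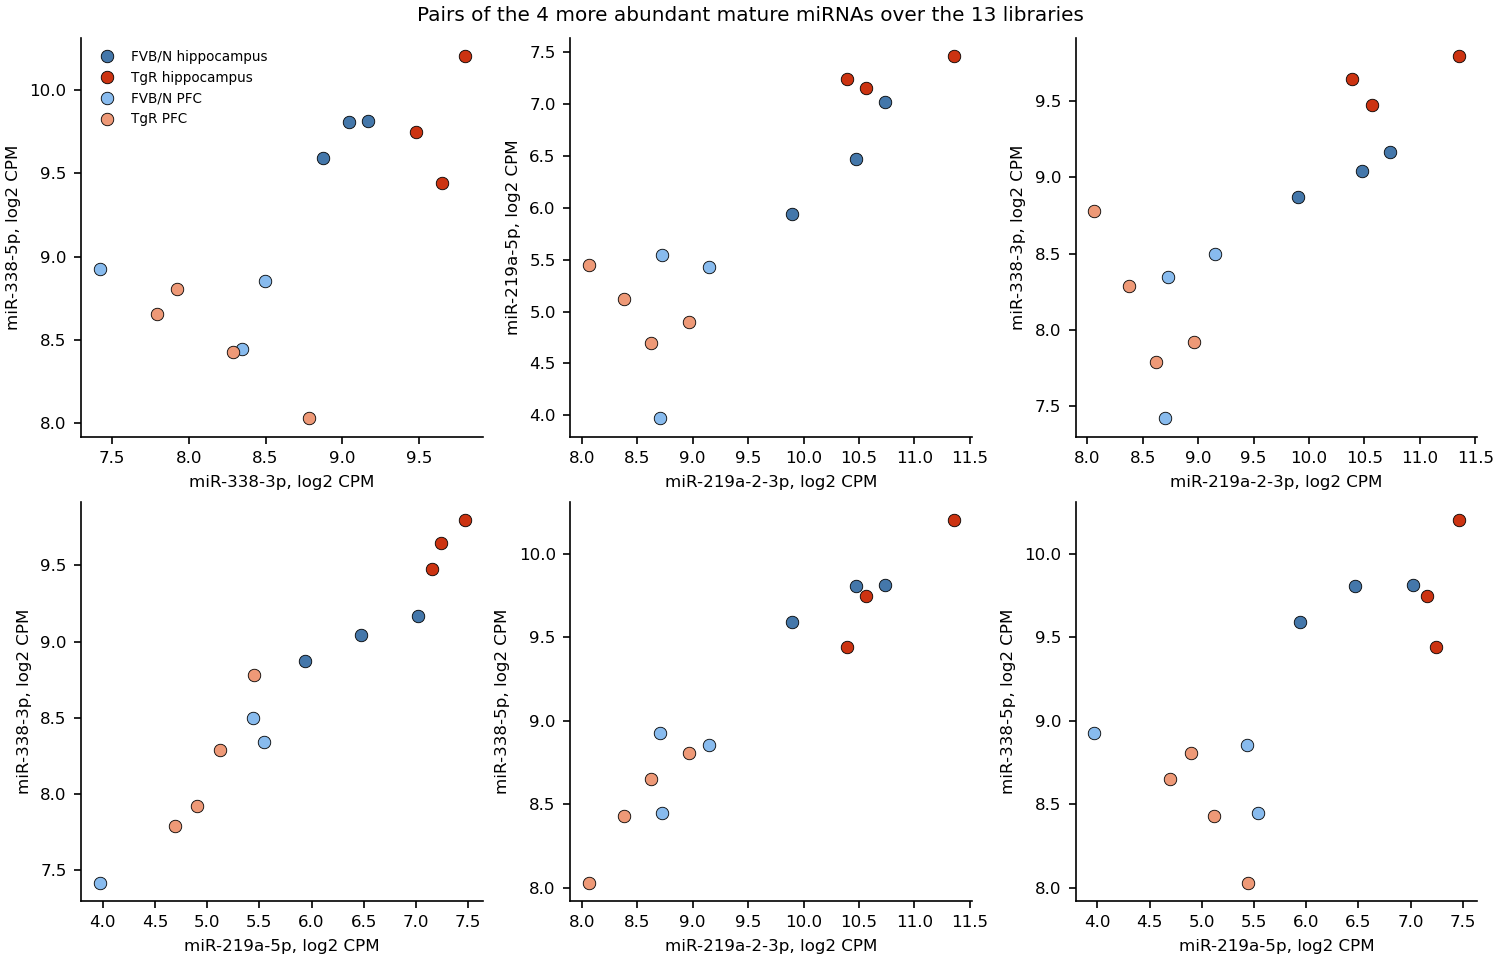
Log2 CPM of 1 mature miRNA against another for the 6 pairs of the 4 more abundant ones, with 1 point per library coloured by group. The upper panels hold the 3 planned pairs, and the lower panels the pairs added after seeing the data, of which miR-219a-5p and miR-338-3p had the highest r in each region (0.924 and 0.929).

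A list of 10 other miRNAs reported for the oligodendrocyte lineage was compared in the same way. It was not divided by stage of the lineage, so its miRNAs need not move together. In FVB/N mice, miR-7a-5p was higher in the hippocampus (log2 fold change 1.13, SE 0.18, adjusted p = 0.0028, edgeR) and miR-27a-3p lower (-0.44, SE 0.11, adjusted p = 0.032, edgeR), making 1 higher and 1 lower of 10, where 7.57% of all tested miRNAs were called in either direction, with a median of -0.21 against 0.02 over all tested. In TgR mice 0 of 10 were called, where 10.2% of all tested were, with a median of -0.01 against 0.05. At this list size these counts are near the background. Between the genotypes edgeR called 0 of 10 in the hippocampus (median 0.11, against 0.01 and 4.64% called over all tested) and 0 of 10 in the PFC (median 0.03, against 0.01 and 0.155%). All 10 were tested and none was at 0. The summed level, most of it from miR-9-5p, a miRNA abundant in neural cells in general, was 115352 to 144197 CPM in FVB/N hippocampus, 114389 to 134592 CPM in TgR hippocampus, 111903 to 125039 CPM in FVB/N PFC and 121979 to 128695 CPM in TgR PFC, with overlap of all groups.

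Marker miRNAs of the choroid plexus, the epithelium that secretes cerebrospinal fluid, moved with genotype in the hippocampus, where 4 of 5 were higher in TgR mice (median log2 fold change 2.44), against 2.01% of all tested miRNAs called higher. In TgR mice 4 of 5 were higher in the hippocampus than in the PFC (median 2.15), against 5.41% of all tested. In FVB/N mice 0 of 5 were called (median 0.41), against 7.57% of all tested called in either direction. The positions of these 5 were not examined, so markers that share a transcript may be counted as separate ones. Their summed level was 8536, 1987.5 and 6899.9 CPM in TgR hippocampus, 2009, 1360.1 and 1468 CPM in FVB/N hippocampus and 894 to 1329 CPM in the 7 PFC libraries, led by miR-204-5p, and none of the 5 was at 0. TgR hippocampus 1 and 3 stood apart in this sum, and TgR hippocampus 2 was within the range of FVB/N hippocampus. For 3 of the 5 markers, however, TgR hippocampus 2 was above every FVB/N hippocampal library, at 311 against 205 to 248 CPM for miR-1298-5p, 54.9 against 24.6 to 38.2 CPM for miR-1264-3p and 11.2 against 2.72 to 4.84 CPM for miR-448-3p. TgR hippocampus 3, rich in these markers, had the highest level of miR-219a-2-3p, miR-219a-5p, miR-338-3p and miR-338-5p, and TgR hippocampus 1 was above TgR hippocampus 2 for miR-219a-2-3p (1518 against 1343 CPM) and miR-338-5p (859 against 695 CPM) and below it for miR-219a-5p (142 against 151 CPM) and miR-338-3p (713 against 802 CPM). The part of choroid plexus tissue in the members' values was tested no further than by leaving out these libraries.

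Of 6 neuronal miRNAs, led by miR-128-3p, miR-218-5p was higher in FVB/N hippocampus than in PFC (log2 fold change 0.65) and miR-128-3p lower (-0.57), and in TgR mice miR-128-3p was lower (-0.65). That made 2 of 6 in FVB/N mice, where 7.57% of all tested miRNAs were called, and 1 of 6 in TgR mice, where 10.2% were. Their summed level was 196629 to 266770 CPM in FVB/N hippocampus, 200275 to 228485 CPM in TgR hippocampus, 242848 to 349460 CPM in FVB/N PFC and 274332 to 326995 CPM in TgR PFC, so the hippocampus was lower with an overlap in FVB/N mice. Of 3 red blood cell miRNAs, led by miR-451a, miR-486a-5p was lower in TgR than in FVB/N hippocampus (-1.07), and miR-451a (-1.55) and miR-144-3p (-1.24) were lower in TgR hippocampus than in TgR PFC. That made 1 of 3 lower between the genotypes, against 2.63% of all tested, and 2 of 3 lower between the regions in TgR mice, against 4.79%. The red blood cell sum was 1708 to 1803 CPM in FVB/N hippocampus, 788 to 1062 CPM in TgR hippocampus, 1589 to 2407 CPM in FVB/N PFC and 1912 to 3746 CPM in TgR PFC, lowest in each TgR hippocampal library.

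Of 4 miRNAs of white blood cells and microglia, led by miR-150-5p, miR-142a-5p was lower in TgR hippocampus than in TgR PFC (log2 fold change -0.56), 1 of 4 against 4.79% of all tested called lower. Their sum was 618 to 735 CPM in the 6 hippocampal libraries and 771 to 1080.1 CPM in the 7 PFC libraries, without overlap. Of 4 vascular miRNAs, led by miR-126a-3p, 0 were called in any comparison by edgeR, where 0.155% to 10.2% of all tested were. Their sum was 17354 to 28766 CPM in the hippocampus and 22204 to 31425 CPM in the PFC. No other miRNA of these 4 lists was called in either genotype or region comparison, none was at 0, and no miRNA of any list was called in the PFC between genotypes or in the test of the difference between regions. All listed miRNAs were above the filter in this tissue, and miR-145a-5p is in both the oligodendrocyte and the vascular list. What part blood, neuronal or vascular RNA had in the members' levels was not tested.

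**Figure D5:**
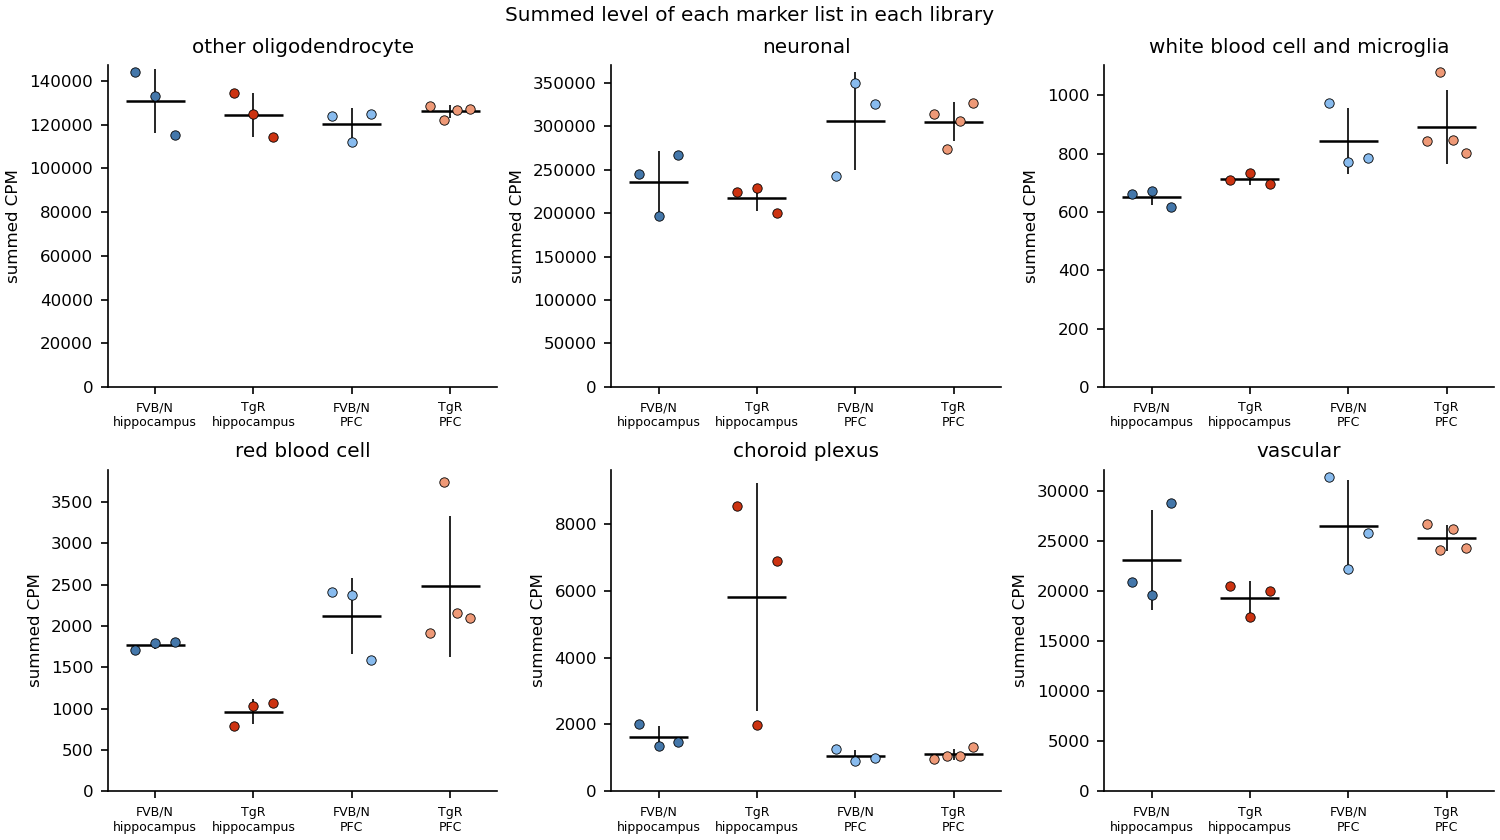
Summed CPM of each of the 6 marker lists (vertical axes, linear from 0, 1 scale per panel) by group, with 1 point per library, a horizontal line at the group mean and a vertical line of 1 SD. The choroid plexus panel shows TgR hippocampus 1 and 3 at 8536 and 6899.9 CPM, apart from all other libraries.

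The miRNAs most like the mean profile of the 5 over the 13 libraries were named by correlation of log2 levels, out of 642 others. This is a description only. They were miR-187-3p (r = 0.943), miR-16-1-3p (0.938), miR-187-5p (0.934), miR-21a-5p (0.933) and miR-101b-3p (0.902). Both arms of miR-187 were higher in the hippocampus than in the PFC, with log2 fold changes of 2.67 in FVB/N and 2.83 in TgR mice for miR-187-3p (adjusted p = 0.00040 and 2.0e-05, edgeR). With the 4 group means subtracted, which leaves the differences between libraries of a group, the nearest were miR-16-1-3p (r = 0.920), miR-101c (0.869), miR-21a-5p (0.836), miR-193b-3p (0.835) and let-7i-3p (0.821). The points of these correlations share the library and its scaling, and miR-16-1-3p and miR-21a-5p were on both lists. With the group means subtracted, r between the members themselves ran from -0.455 (miR-338-3p with miR-338-5p) to 0.888 (miR-219a-5p with miR-338-3p). The miRNAs named on that scale are thus like the mean of the members and need not be like each member.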

How the data were processed

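Small RNA of 13 libraries was sequenced from 300 ng of total RNA each, with RNA integrity numbers of 8.6 to 9.3. The authors checked reads with FastQC 0.11.8, assigned them to miRBase 21 with miRExpress 2.0, and deposited raw counts for each pair of a hairpin and a mature miRNA. Pairs that were not listed were taken as 0. Totals per library over all pairs ranged from 8769851 to 18385985, and no replicates were duplicates (chi-square per degree of freedom 47.9 to 558).

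Here, each mature miRNA was taken from its hairpin with the highest total (71 have several), which left totals of 5350259 to 11111883. Counts were fitted in 4 groups with edgeR 4.0.16 in R 4.3.3 (TMM, filterByExpr with a minimum count of 10, quasi-likelihood test), and p-values were adjusted by Benjamini-Hochberg over 647 mature miRNAs, with adjusted p under 0.05 as the threshold. SE is the size of the log2 fold change over the square root of F. Ratios of counts (pseudocount 0.5) were tested by exact permutation within the other factor, and correlations by exact permutation of pairings (Python 3.11.15, scipy 1.17.1, numpy 2.4.6, pandas 2.3.3). The scripts were tested on simulated data.

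Alternatives were DESeq2 1.42.0, its size factors, library size only, no filter, an adjusted p under 0.1, every pair of hairpin and mature miRNA, counts summed over hairpins, each library left out, the replicate number as a block over all groups or within genotype, 1 region or 1 genotype alone and, for ratios, a pseudocount of 1. Leaving out TgR hippocampus 1 and 3 together, and 3 more correlated pairs, were chosen after seeing the data.

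The named miRNAs are the products of the 3 hairpins and of mir-219b, mir-219c and mir-3065, the other oligodendrocyte list, listed miRNAs that share a seed with a member, and the 5 most like the members' mean profile, as is and with group means subtracted (log2 CPM, prior count 1). Members of the marker lists (neuronal, white blood cell and microglia, red blood cell, choroid plexus, vascular) are described by counts and sums. The members and lists were chosen with earlier results of these data known. Positions are from the GRCm38.p6 annotation.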

Additional observations from a re-analysis of the deposited data

How the results depend on the processing

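No called fold change or ratio of the 5 miRNAs changed direction. Alternatives were not run for other named miRNAs. The sign of the fold change between regions was the same in all 24 alternatives for all 5 miRNAs in both genotypes. The alternative with an adjusted p under 0.1 reused the main fit, so it could not change a sign. Where counts changed with a setting, the cause was not tested. DESeq2 called 13 miRNAs for the difference between regions (3 by edgeR) and 75 for hippocampus against PFC in FVB/N mice (49 by edgeR). With no filter, 2 miRNAs were called between genotypes in the PFC (1 with it) and 16 for the difference. At an adjusted p under 0.1, 6 were called for the difference and 89 for the regions in FVB/N mice. With the replicate number as a block, 5 were called for the difference. Between genotypes, libraries with the same number correlated at -0.15 to 0.39 (6 pairs) and others at -0.58 to 0.39 (15 pairs). Between regions, the ranges were -0.15 to 0.38 (6 pairs) and -0.43 to 0.34 (15 pairs). The same-number values between regions were 0.11, 0.07 and 0.20 in FVB/N mice and 0.08, 0.38 and -0.15 in TgR mice. As the ranges overlap, they do not decide whether the numbers pair libraries. These numbers are those of the titles, and the deposited FVB/N PFC data carry another numbering, so the block and the same-number pairs depend on that choice. With 1 region fitted alone, 1 of the 5 was called between genotypes in the hippocampus, among 30 miRNAs called in that fit, and with FVB/N mice alone 22 miRNAs were called between regions.

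Without TgR hippocampus 1 and 3, chosen after seeing the data, 3 miRNAs were called between genotypes in the hippocampus, 0 for the difference (edgeR), 23 between regions in FVB/N mice and 5 in TgR mice, 1 of them among the 5. With each library left out in turn, the calls were 9 to 37 between genotypes in the hippocampus, 2 to 8 for the difference, 24 to 50 between regions in FVB/N mice (1 to 4 of the 5) and 29 to 75 in TgR mice.

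Correlations in the hippocampus with each library left out were not given, since 5 libraries are under the minimum of 6 for a test. The r without the 2 farthest libraries, on 4 libraries in the hippocampus and 5 in the PFC, is a description with no p. At 16 to 39 counts per library, miR-219a-1-3p is limited by depth more than the others.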

Other observations

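The 3 other pairs of the 4 more abundant miRNAs were correlated after seeing the data, with p adjusted over all 12 relations. miR-219a-5p and miR-338-3p, from hairpins on different chromosomes, had r = 0.924 over the 6 hippocampal libraries (exact permutation p = 0.00278, adjusted p = 0.0167; rho = 1, p = 0.00278; r = 0.951 without the 2 farthest libraries). Both miRNAs separated the genotypes there, and with the genotype means subtracted r was 0.850. In the 7 PFC libraries they had r = 0.929 (exact permutation p = 0.00179, adjusted p = 0.0167; rho = 0.893, p = 0.0123, adjusted p = 0.0738), 0.783 without the 2 farthest libraries, 0.931 with the genotype means subtracted and 0.879 to 0.964 over the alternatives, with an adjusted p of 0.0083 to 0.083. It passed in 3 of 8 PFC alternatives and not without FVB/N PFC 1 or 3 or TgR PFC 1, 3 or 4.

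miR-219a-2-3p and miR-338-5p had r = 0.848 in the hippocampus (exact permutation p = 0.0653, adjusted p = 0.131). Their rho there was 0.886 (exact permutation p = 0.0333, adjusted p = 0.133), and r was 0.699 without 2 libraries and 0.899 with the genotype means subtracted. In the PFC, r was 0.852 (exact permutation p = 0.0157, adjusted p = 0.0627) and rho was 0.714 (exact permutation p = 0.0881, adjusted p = 0.264). There r was 0.591 without 2 libraries and 0.811 with the genotype means subtracted. With library size only, the 1 alternative in the hippocampus, r was 0.915 (exact permutation, adjusted p = 0.0389). In the PFC, r was 0.659 to 0.936 over 8 alternatives (exact permutation, adjusted p = 0.0417 to 0.303), and 2 of 8 passed. miR-219a-5p and miR-338-5p had r = 0.387 in the hippocampus (exact permutation p = 0.471; rho = 0.257, p = 0.658; 0.522 without 2 libraries) and -0.588 in the PFC (exact permutation p = 0.167; rho = -0.607, p = 0.167; -0.397 without 2 libraries). These levels share the library and its TMM scaling.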
